A study of Drosophila melanogaster with 6 samples.

Results

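The glutathione S-transferase genes of Drosophila melanogaster were followed in the proboscis, the mouthpart that carries most taste bristles of the head, in males with 2 copies or 1 copy of the poxn70 allele. Members were all genes with a symbol that starts with Gst, then a class letter (D, E, O, S, T or Z) and a digit, and 34 of the 11982 genes named on the array met this rule. They comprised 11 delta, 13 epsilon, 4 theta, 3 omega, 2 zeta genes and 1 sigma gene. The gene table lists 35 such genes, and GstE8, the one without a member probe set, was not analysed here. Where several probe sets named one gene alone, the gene was read from the brightest of them by its mean of all 6 arrays.

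The study compared 3 poxn70 homozygous with 3 poxn70 heterozygous biological replicates, with 1 array per replicate. Males were 8 to 18 days past eclosion and were kept at room temperature, and RNA of 164 to 280 proboscises was pooled per array after dissection in several batches. Poxn (Pox neuro) is a transcription factor gene needed for external sense organs to become taste bristles, and in mutants these organs form as bristles of touch. The controls carry 1 copy of the same allele, so no group here is free of poxn70, and the labels do not describe the rest of the genotype.

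Glutathione S-transferases join the tripeptide glutathione to reactive or fat-soluble compounds, which can then be exported or broken down further, and several of them also reduce peroxides. Delta and epsilon are the large insect classes, mostly arranged in gene clusters, and are best known for insecticide resistance and for the handling of plant toxins. In fly chemosensory organs such enzymes are among the proteins thought to clear odorants and tastants. Part of the family is induced by the transcription factor CncC, which the adaptor Keap1 holds in check.

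All levels are log2 GCRMA values as deposited, in which 1 unit is a 2-fold difference. The SD stands beside a mean over the 3 arrays of a genotype, and each difference is homozygous minus heterozygous with its SE from limma. Levels of different probe sets are not on a common scale, so levels are compared between genotypes and not between genes. A value under 3 was taken as background, and 30 members were above this limit on at least 1 array. The probe set of Poxn was read between 2.30 and 2.65 on all 6 arrays and gave no check of the genotype labels. The tissue was checked by 11 taste neuron markers, each above the limit on some array, of which limma called 4 lower in homozygotes at the adjusted threshold (Gr66a, Gr33a, Gr32a and Ir25a). With the replicate number as a block these 4 calls were lost, as limma then called 0 probe sets. The maxillary palp receptors Or42a, Or71a, Or59c, Or85d, Or85e, Or33c and Or46a were all under the limit. Homozygous replicate 1 stood apart from the other arrays, with a mean correlation to them of 0.911 over the brighter 50% of probe sets, against 0.951 to 0.959 for the other 5 arrays. The number of arrays limits the precision of every value below.

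No glutathione S-transferase gene passed the adjusted threshold, although most members had higher means in homozygotes. Of the 34 members, limma called 0 lower and 0 higher with adjusted p below 0.05, beside 0.314% called lower and 0.0586% called higher over all 18769 probe sets. At an unadjusted p under 0.05 (limma), 9 members were higher and 0 lower, which is 26.5% of the family, beside 4.33% higher and 2.9% lower over all probe sets. In 14 members, 41.2%, all 3 homozygous values lay above all 3 heterozygous values, and in 0 members all lay below. Over all probe sets these shares were 18.5% and 4.48%. Of the 14 members 2 were under the background limit, GstD7 with a difference of 0.007 and GstE14 with 0.24. GstD6, also among the 14, was above the limit on homozygous replicate 1 alone. With values under 3 set to 3, the count was 11 members. Among the 28 members in the brighter 50% of probe sets, 11 were higher without overlap (39.3%) and 0 lower, beside 12.7% and 8.44% of all probe sets in that range. The 9 members with an unadjusted p under 0.05 were all in that range, 32.1% of the 28 members, beside 6.4% of its probe sets (limma). The mean was higher in homozygotes in 28 of 34 members, beside 70.6% of all probe sets, and in 24 of the 28 brighter members, beside 54%. The median difference of the 34 members was 0.34, against 0.00 over all probe sets, and the smallest adjusted p was 0.245, for GstE2. These shares describe the family and were not tested as a set. In RNA from a whole organ, a change in the number of cells of a type and a change in RNA per cell cannot be told apart.

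**Figure D1:**
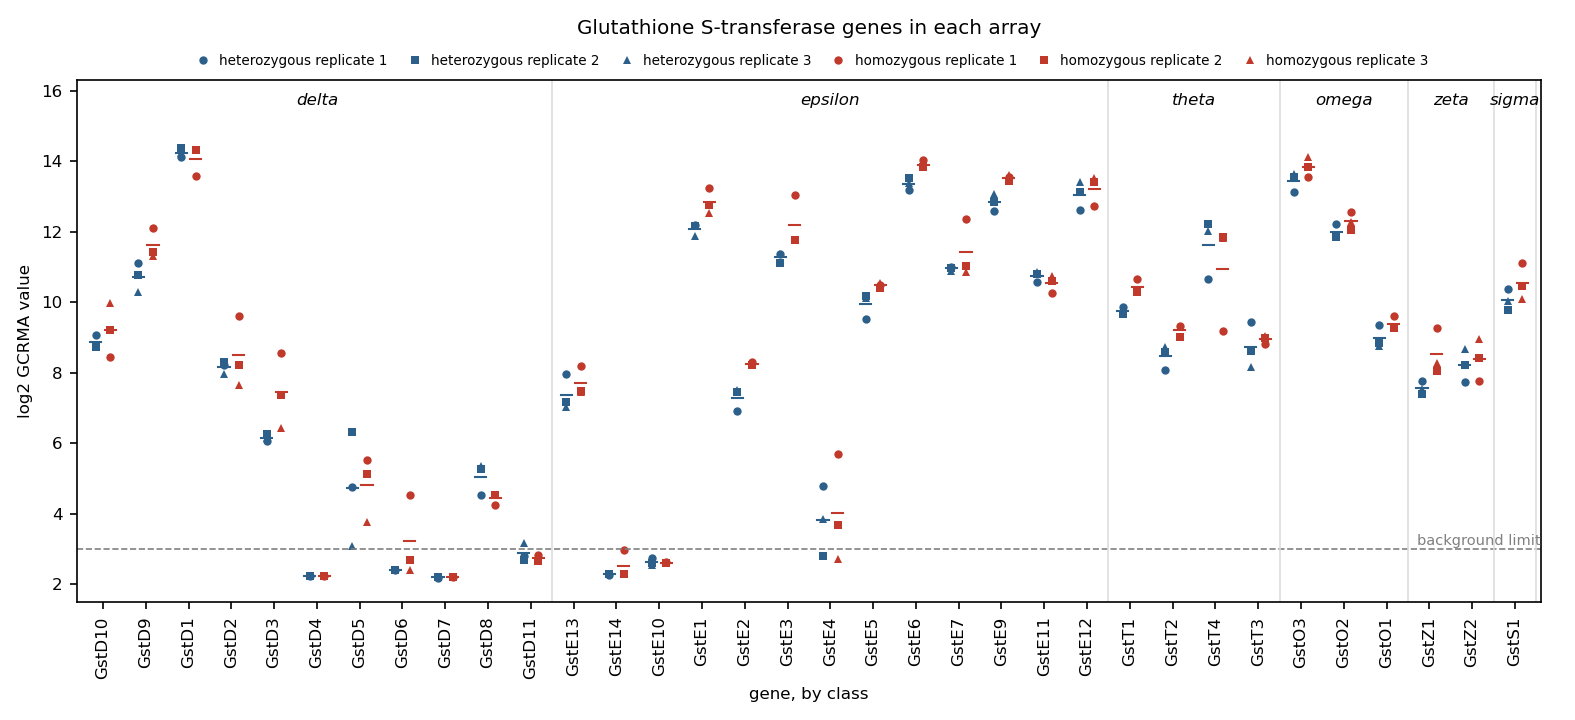
Log2 GCRMA values of the 34 genes (vertical axis) by class (horizontal axis). Each symbol is 1 array, blue for heterozygous and red for homozygous, with the shape giving the replicate number and a short line the mean of 3 arrays, and the dashed line is the background limit of 3. In GstE2 the 3 homozygous values lie together at 8.23 to 8.30, above the heterozygous values of 6.92 to 7.50, while in GstD1, GstD10 and GstE12 the genotypes overlap.

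The epsilon genes that form a cluster on chromosome arm 2R held 6 of the 14 members that were higher without overlap. In the gene table (assembly Release 6 plus ISO1 MT) GstE10, GstE1, GstE2 and GstE3 are direct neighbours, and GstE4 to GstE9 follow after 2 non-member genes. Of the 9 cluster genes measured, these 6 were 66.7%, beside 12.7% of the brighter 50% of probe sets and 18.5% of all. An unadjusted p under 0.05 (limma) was found in 5 of the 9, beside 6.4% and 4.33%, and the median difference of the 9 genes was 0.54. None of the 4 epsilon genes elsewhere on the arm had such a p, and their median difference was 0.20. Higher without overlap was 1 of these 4 (25%), GstE14, which was under the background limit. The difference between these sets of genes was not tested.

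GstE2 had the smallest p of the family. In mosquitoes the enzyme of this name breaks down the insecticide DDT. It was at 8.30, 8.23 and 8.26 in homozygous replicates 1, 2 and 3 (mean 8.26 ± 0.03) and at 6.92, 7.46 and 7.50 in the heterozygous ones (mean 7.29 ± 0.32). The homozygous arrays differed little from each other, and every heterozygous array lay below all of them. The difference was 0.97 ± 0.19 (SE), or 1.96-fold, with a 95% confidence interval of 0.48 to 1.46 and an adjusted p of 0.245 (limma). GstE9 was at 13.56, 13.43 and 13.60 in homozygotes (mean 13.53 ± 0.09) and at 12.59, 12.85 and 13.08 in heterozygotes (mean 12.84 ± 0.24), a difference of 0.69 ± 0.15 or 1.61-fold (limma adjusted p = 0.311). GstE6 was at 14.04, 13.83 and 13.86 (mean 13.91 ± 0.11) against 13.20, 13.52 and 13.38 (mean 13.37 ± 0.16), a difference of 0.54 ± 0.13 or 1.46-fold (limma adjusted p = 0.362). In both genes the genotypes did not overlap and the homozygous arrays were close together. GstE5 was at 10.51, 10.40 and 10.54 (mean 10.48 ± 0.07) against 9.53, 10.18 and 10.11 (mean 9.94 ± 0.36), with a difference of 0.54 ± 0.20 and no overlap (limma adjusted p = 0.611). In GstE2, GstE5, GstE6 and GstE9 heterozygous replicate 1 was the lowest array of all 6, and without it the difference of GstE5 was 0.34.

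In the other cluster genes the homozygous arrays were less alike. GstE1 was at 13.24, 12.76 and 12.53 in homozygotes (mean 12.84 ± 0.36) and at 12.19, 12.17 and 11.88 in heterozygotes (mean 12.08 ± 0.17), a difference of 0.76 ± 0.22 (limma adjusted p = 0.498). GstE3 was at 13.05, 11.78 and 11.78 (mean 12.20 ± 0.73) against 11.37, 11.12 and 11.36 (mean 11.28 ± 0.14), a difference of 0.92 ± 0.38 (limma adjusted p = 0.611). Homozygous replicate 1 was the highest array in both genes, and without it the difference was 0.56 in GstE1 and 0.50 in GstE3. GstE7 was at 12.37 in homozygous replicate 1, while the other homozygous arrays, at 11.04 and 10.86, lay on either side of the heterozygous range of 10.89 to 11.02. GstE4 varied more within each genotype than between them, from 2.72 to 5.69 in homozygotes and from 2.81 to 4.79 in heterozygotes. GstE10 was under the limit on every array. A further probe set of GstE9, dimmer than the one used, gave a smaller difference of 0.33 ± 0.67 with overlapping groups, so the gene's probe sets did not give the same size of difference.

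Of the epsilon genes outside the cluster, GstE13, GstE11 and GstE12 overlapped between genotypes, with differences of 0.33 ± 0.35, -0.21 ± 0.16 and 0.17 ± 0.31. GstE14, called noppera-bo, is needed for the making of the molting hormone ecdysone in larvae. It was under the limit on all 6 arrays of these adult proboscises, though counted as higher without overlap. Homozygous replicate 1 was at 2.97, while homozygous replicates 2 and 3, at 2.29 and 2.28, lay next to the heterozygous range of 2.27 to 2.28.

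**Figure D2:**
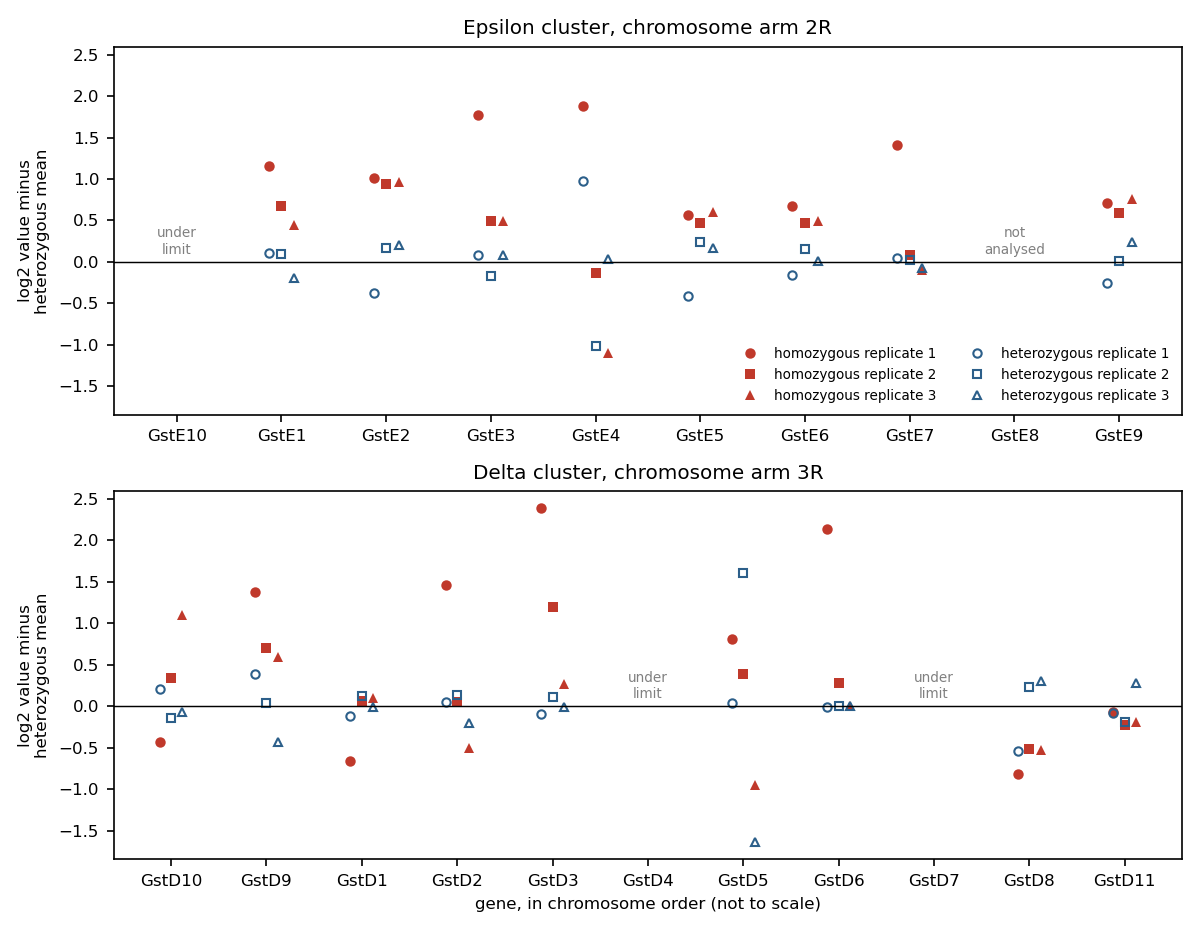
Log2 value of each array minus the heterozygous mean of its gene (vertical axis), for the epsilon cluster on 2R and the delta cluster on 3R, with genes in chromosome order and not to scale (horizontal axis). Red filled symbols are homozygous and blue open symbols heterozygous arrays, with the shape giving the replicate number. In GstE1, GstE2, GstE3, GstE5, GstE6 and GstE9 all 3 red symbols lie above all blue ones, and in GstD2, GstD3, GstD6, GstE3 and GstE7 homozygous replicate 1 lies far above the rest.

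Among the 4 theta genes, the neighbours GstT1 and GstT2 had higher values without overlap, and the other members overlapped. This share of 50% stood beside 12.7% of the brighter 50% of probe sets and 18.5% of all. The theta class is found from bacteria to mammals. GstT1 was at 10.67, 10.29 and 10.34 in homozygotes (mean 10.43 ± 0.21) and at 9.87, 9.67 and 9.75 in heterozygotes (mean 9.76 ± 0.10). All 3 homozygous arrays were above every heterozygous one, and the difference was 0.67 ± 0.14 or 1.59-fold (95% confidence interval 0.32 to 1.02, limma adjusted p = 0.260). GstT2 was at 9.33, 9.02 and 9.31 (mean 9.22 ± 0.18) against 8.08, 8.58 and 8.74 (mean 8.47 ± 0.34), a difference of 0.75 ± 0.21 without overlap (limma adjusted p = 0.489). GstT1 and GstT2 lie side by side on 2R, at a distance from the epsilon cluster. GstT3 and GstT4 are on the X chromosome and overlapped between genotypes. GstT4 was the member with the lowest difference, -0.68 ± 0.89, and its spread came from 2 arrays, homozygous replicate 1 at 9.19 and heterozygous replicate 1 at 10.66, while the other 4 arrays lay between 11.84 and 12.22.

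Delta genes had a median difference near 0, and their largest difference rested in large part on homozygous replicate 1. Of the 11 members, 4 were higher without overlap (36.4%, beside 18.5% of all probe sets), 1 of them, GstD7, under the limit in both genotypes, and the median difference was 0.08. GstD9 was at 12.10, 11.43 and 11.32 in homozygotes (mean 11.62 ± 0.43) and at 11.11, 10.77 and 10.29 in heterozygotes (mean 10.72 ± 0.41), a difference of 0.89 ± 0.31 (limma adjusted p = 0.611). It was the 1 delta gene with an unadjusted p under 0.05, and without homozygous replicate 1 its difference was 0.65. GstD3 had the largest mean difference of the family, 1.29 ± 0.55 (95% confidence interval -0.12 to 2.69, limma adjusted p = 0.611). Its values were 8.55, 7.37 and 6.44 in homozygotes (mean 7.45 ± 1.06) and 6.07, 6.27 and 6.15 in heterozygotes (mean 6.16 ± 0.10). The homozygous arrays thus spread over more than the mean difference, and the difference was 0.74 without homozygous replicate 1.

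GstD8 was the delta gene with the lowest difference, at 4.24, 4.54 and 4.53 in homozygotes (mean 4.44 ± 0.17) and at 4.52, 5.28 and 5.37 in heterozygotes (mean 5.06 ± 0.47). The groups overlapped through heterozygous replicate 1, and the difference was -0.62 ± 0.30 (limma adjusted p = 0.611). GstD1, a delta enzyme that acts on DDT and whose promoter is widely used as a reporter of CncC activity, was at 13.58, 14.31 and 14.34 in homozygotes and at 14.12, 14.37 and 14.23 in heterozygotes. The groups overlapped, with a difference of -0.17 ± 0.24 and a 95% confidence interval of -0.79 to 0.45. GstD2, which conjugates glutathione to the pungent isothiocyanates, was at 9.61, 8.21 and 7.65 against 8.21, 8.29 and 7.96. Homozygous replicate 1 was again the highest array, while homozygous replicate 3 was the lowest. GstD10 and GstD5 overlapped between genotypes as well, with differences of 0.34 ± 0.41 and 0.08 ± 0.96. GstD6 was above the limit on homozygous replicate 1 alone, at 4.54, with homozygous replicates 2 and 3 at 2.69 and 2.42. Its homozygous mean of 3.22 thus rested on 1 array, and the 95% confidence interval of its difference was -0.67 to 2.28 (limma). GstD11 was above the limit on heterozygous replicate 3 alone, at 3.17, and GstD4 and GstD7 were under it on every array.

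Zeta, omega and sigma members had higher homozygous means, as did 54% of the brighter 50% of probe sets. Of the 6 members 1, GstZ1, was higher without overlap, beside 12.7% of those probe sets and 18.5% of all. In mammals the zeta enzyme is the isomerase of a late step of tyrosine breakdown. GstZ1 was at 9.27, 8.05 and 8.27 in homozygotes (mean 8.53 ± 0.65) and at 7.77, 7.39 and 7.54 in heterozygotes (mean 7.56 ± 0.19), a difference of 0.96 ± 0.35 (limma adjusted p = 0.611). Without homozygous replicate 1 the difference was 0.60. Its neighbour GstZ2 was at 7.76, 8.42 and 8.96 against 7.75, 8.21 and 8.67 and overlapped between genotypes, with a difference of 0.17 ± 0.39. Omega enzymes act on disulfides and reduce dehydroascorbate. GstO3 was at 13.56, 13.84 and 14.13 in homozygotes (mean 13.84 ± 0.28) and at 13.14, 13.56 and 13.63 in heterozygotes (mean 13.44 ± 0.27), with a difference of 0.40 ± 0.21 (limma adjusted p = 0.611). Its groups overlapped, and the difference was 0.25 without homozygous replicate 3 and 0.24 without heterozygous replicate 1. The groups also overlapped in GstO1, with 0.41 ± 0.20, and in GstO2, with 0.30 ± 0.18. A dimmer probe set of GstO2 gave 0.64 ± 0.20 without overlap (limma adjusted p = 0.575).

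GstS1, the sigma enzyme, is known for its abundance in indirect flight muscle. It was at 11.12, 10.46 and 10.08 in homozygotes (mean 10.56 ± 0.53) and at 10.38, 9.78 and 10.05 in heterozygotes (mean 10.07 ± 0.30), a difference of 0.49 ± 0.31 with overlapping groups (limma adjusted p = 0.611). Without homozygous replicate 1 the difference was 0.20. The flight muscle actin Act88F differed widely between arrays of both genotypes, from 5.67 to 9.01 in homozygotes and from 4.82 to 10.70 in heterozygotes. Of the 5 muscle markers, 0 were called by limma and 0 had an unadjusted p under 0.05. The part of muscle RNA in the values of GstS1 was not tested.

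**Figure D3:**
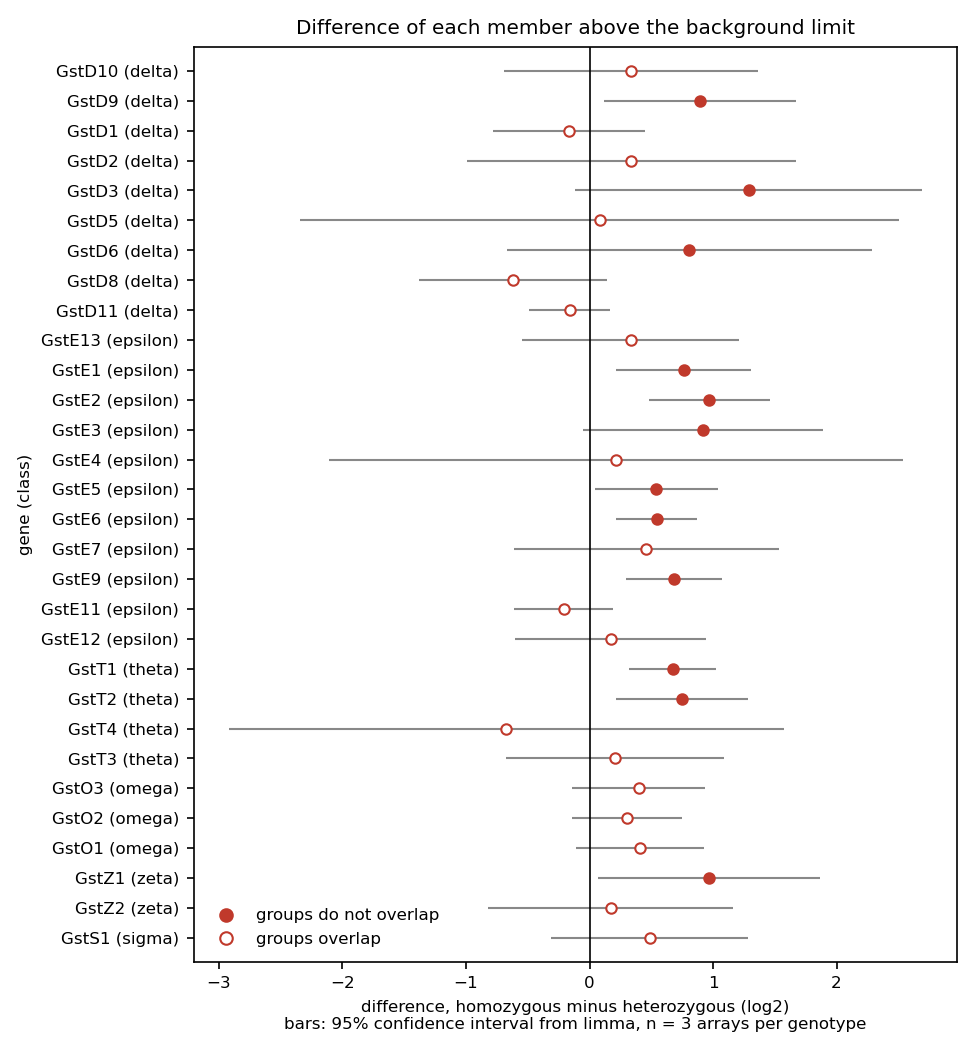
Difference between homozygous and heterozygous means on the log2 scale (horizontal axis) for the 30 genes above the background limit (vertical axis), with 95% confidence intervals from limma. Filled circles mark genes whose genotypes do not overlap, all of them above 0. The interval excludes 0 in GstE1, GstE2, GstE5, GstE6, GstE9, GstT1, GstT2, GstD9 and GstZ1, before adjustment for the number of probe sets tested.

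Homozygous replicate 1 was the highest of the 6 arrays in 17 of the 30 members above the limit, beside 34.7% of the brighter 50% of probe sets. It was the lowest in 5 of the 30, beside 27.2%. The median deviation of these 30 members from their own means over the 6 arrays was 0.45 in homozygous replicate 1, 0.15 in replicate 2 and 0.14 in replicate 3. In heterozygotes it was -0.23, -0.28 and -0.26, so by this median of all classes the 3 homozygous arrays were each above the 3 heterozygous arrays. The same held within epsilon, theta, omega (3 members) and zeta (2 members), but not within delta or sigma. Medians over the brighter 50% of probe sets were in the same order as those of the 30 members, at smaller size. They were 0.0541, -0.011 and 0.0157 in homozygotes and -0.0208, -0.0155 and -0.0238 in heterozygotes. In delta, homozygous replicate 3 was at -0.21, below heterozygous replicates 1 (-0.06) and 2 (-0.11). In sigma, it was at -0.23, below heterozygous replicate 1 (0.07). Without homozygous replicate 1 the median difference of the 34 members was 0.24, and 8 were higher and 0 lower at an unadjusted p under 0.05 (limma), beside 7.1% higher over all probe sets. In that layout of 2 against 3 arrays 18 members were higher without overlap (52.9%) and 1 lower, beside 51.1% and 8.91% of all probe sets, or 24.8% and 17% of the brighter 50%. With arrays compared by replicate number, 18 of the 28 brighter members were higher in all 3 pairs and 3 were lower in all 3, which were GstT4, GstE11 and GstD8. The share of 64.3% higher stood beside 25.1% of the brighter 50% of probe sets. Of these 9385 probe sets, 1606 were lower in all 3 pairs. With the replicate number as a block limma called 0 members and 0 probe sets in either direction. At an unadjusted p under 0.05 this block gave 11 of the 34 members higher and 0 lower, beside 10.8% higher over all probe sets.

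Of the 14 members higher without overlap, 9 lay on 2R, the chromosome arm that carries Poxn, and 5 on 3R. Of the 14 brighter members on 2R, 8 were higher without overlap (57.1%), beside 13.8% of the brighter probe sets of that arm. On 3R it was 3 of 9 (33.3%), beside 12.6%, on 3L 0 of 3, beside 12.1%, and on the X chromosome 0 of 2, beside 10.1%. The first gene of the epsilon cluster stands 516 genes from Poxn in the gene table, and GstT1 and GstT2 stand 1031 and 1030 genes away on its other side. The flanking genotype is not given in the labels. Whether the groups differ in the copies of these distant genes was not tested, and any such difference and the loss of Poxn cannot be told apart in this design.

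Over the 33 genes of 6 comparison lists, which cover glutathione supply, other transferases, regulators, antioxidants, export pumps and tyrosine breakdown, the median difference was -0.04. Of these genes limma called 0 lower and 0 higher, and 3 were higher and 0 lower at an unadjusted p under 0.05, which is 9.09%, beside 4.33% higher over all probe sets. Without overlap 4 were higher (12.1%) and 0 lower, beside 18.5% and 4.48%. In 9 genes of glutathione synthesis and recycling the median difference was -0.16, with 0 at an unadjusted p under 0.05. Gclc, the catalytic subunit of the first step of glutathione synthesis, was at 10.26, 10.84 and 10.57 against 10.14, 10.51 and 10.28, and the glutaredoxin Grx1 had a difference of 0.33 ± 0.22. The 3 transferase genes outside the naming rule had a median difference of 0.38. Of them gfzf, a zinc finger protein with a transferase domain, was at 9.10, 9.25 and 9.03 against 8.55, 8.90 and 8.78, higher without overlap (0.38 ± 0.13, limma adjusted p = 0.611). The others overlapped between genotypes. They were se, which makes a precursor of the red eye pigment and lies between GstO3 and GstO2 (0.43 ± 0.52), and the microsomal Mgstl (-0.39 ± 0.60).

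Of 4 regulators, Keap1 was higher without overlap, at 9.61, 9.42 and 9.61 against 8.72, 8.94 and 9.39, a difference of 0.53 ± 0.20 (limma adjusted p = 0.611). The gene of its partner CncC, cnc, picked with its values known, was at 11.90, 11.78 and 11.81 against 12.12, 11.78 and 11.84, and the cofactor gene maf-S had a difference of -0.34 ± 0.31. Among 8 antioxidant genes the median difference was -0.02, and the thioredoxin Trx2 was higher without overlap, at 13.43, 13.14 and 13.35 against 12.43, 12.93 and 13.04. The peroxiredoxin Prx6c had a difference of -0.27 ± 0.23. In 5 ABC export pumps the median difference was 0.01, with MRP, which exports glutathione conjugates, at 0.07 ± 0.11, Mdr49 at -0.11 ± 0.21 and Mdr50 at 0.25 ± 0.46. In 4 genes of tyrosine breakdown it was 0.00, with hgo at 0.24 ± 0.23 and Tat at -0.51 ± 0.63, and 0 of the 4 had an unadjusted p under 0.05 (limma).

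**Figure D4:**
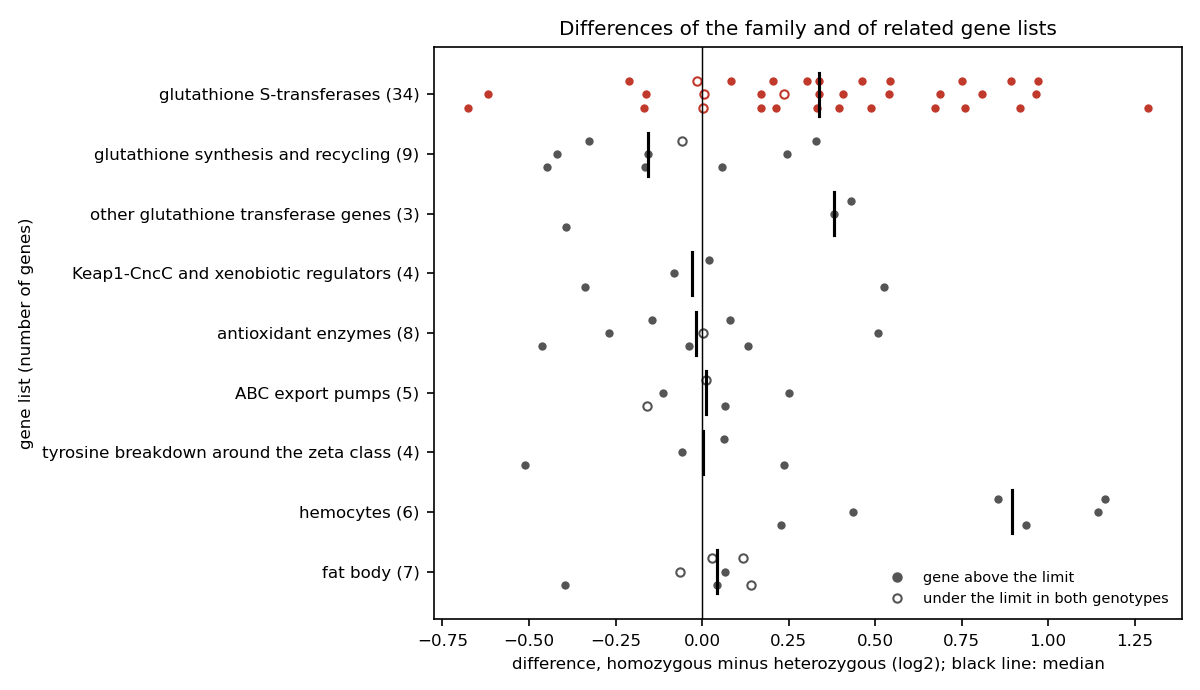
Difference between homozygous and heterozygous means on the log2 scale (horizontal axis) for each gene of the family and of related lists (vertical axis). Filled circles are genes above the background limit, open circles genes under it in both genotypes, and black lines are medians. The median lies at 0.34 for the 34 family members, at -0.16 for 9 glutathione synthesis and recycling genes and at 0.90 for 6 blood cell markers.

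Markers of some other cell types also differed between the genotypes. All 6 blood cell (hemocyte) markers had higher homozygous means, beside 54% of the brighter 50% of probe sets. Hml, Sr-CI and PPO1 (50%) had an unadjusted p under 0.05 (limma), beside 6.4% of those probe sets. These 3 were also higher without overlap, beside 12.7%, while PPO2, NimC1 and eater overlapped between genotypes. Limma called 0 of the 6 markers. Their summed level on the linear scale ran from 4874.4 to 6304.4 in homozygotes and from 2769.7 to 3491.2 in heterozygotes. Of the 7 fat body markers, Lsp2, Fbp1, Fbp2 and Yp2 were under the limit on all 6 arrays. The summed level of the 7 markers, mostly that of apolpp, ran from 16591.2 to 19593.6 in homozygotes and from 15126.3 to 20165.5 in heterozygotes. The 11 taste neuron markers summed to between 169.7 and 335.7 in homozygotes and between 2530.0 and 3929.6 in heterozygotes. The 5 general neuron markers all had lower homozygous means, beside 4314 of the 9385 brighter probe sets. Among the markers brp was under the limit on all 6 arrays, and nSyb and Syn overlapped between genotypes. Appl had an unadjusted p under 0.05, beside 2.9% lower over all probe sets, and 0 were called (limma). The summed level of the 5 markers, mostly that of Appl, ran from 1392.3 to 1912.0 in homozygotes and from 2789.7 to 3423.9 in heterozygotes. The 7 support cell markers, odorant-binding proteins among them, summed to between 18158.7 and 21969.2 in homozygotes and between 96003.2 and 127587.1 in heterozygotes. The part of these cell types in the values of the glutathione S-transferases was not tested.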

How the data were processed

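The deposited log2 values are GCRMA values of 6 single-colour arrays, 1 per biological replicate, per the submitters' processing notes, and the log2 scale was read from their range (1.57 to 16.02). GCRMA corrects background by probe sequence and normalizes between arrays, and the sources used here do not give its version. It holds probe sets without signal in a narrow low band, so a limit of 3 was used, and 48.2% of probe sets had all 6 values under it. About 50 ng of RNA per sample was amplified in 2 rounds, per the labels' protocols, which can distort levels of single genes.

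Of 18952 probe sets, 183 controls were left out. Names came from the platform annotation, updated through Entrez identifiers in a RefSeq gene table (13544 of 13647 single-gene probe sets, and all 34 members). Close family members can share probe sequence, which was not checked. No table used here holds gene or protein sequences.

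Differences were fitted over 18769 probe sets with limma 3.58.1 in R 4.3.3 (eBayes with an intensity trend, two-sided). P-values were adjusted by Benjamini-Hochberg over all of them, calls were made under 0.05, and the fit was tested on simulated data. An exact permutation test of 3 against 3 arrays cannot go below 0.1. Full values are given for the 12 members above the limit with the smallest p and for the brightest member of each class left (GstO3 and GstS1). From each comparison list the 2 genes above the limit with the smallest p are named, and others complete a count or a role. Members, lists and limit were chosen with earlier results of these data known. Same-numbered arrays deviated together from their genotype means (correlations 0.372, 0.288 and 0.142). Each was above 0.1, and on that basis alone the numbers served as pairs in the replicate blocks and the comparison by replicate number. The labels do not explain the numbers, and the fit reported used no pairs or blocks. Unlike-numbered arrays ran from -0.349 to 0.275, with homozygous 3 closer to heterozygous 2 (0.275) than to heterozygous 3, so replicates 2 and 3 are not told apart by this check. Alternatives were a fixed and a random replicate block, a filter on dim probe sets, other scalings, no trend, the mean over probe sets and arrays left out. Genes of the lists without a single-gene probe set in the annotation, Sod1 and Zw among them, were not analysed here.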

Additional observations from a re-analysis of the deposited data

How the results depend on the processing

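In all 16 alternative fits limma called 0 glutathione S-transferase genes in either direction, as it did 0 genes of the comparison lists, and the 14 members given in full kept their sign in each fit that held them. The smallest adjusted p of a member was 0.0693, for GstT1 under a random replicate block (limma). With the replicate block it was 0.334, a value shared by several members, GstE1, GstE2 and GstT1 among them. Over all probe sets the calls moved far more. They numbered 59 lower and 11 higher in the fit reported, 0 and 0 with the replicate block, 117 and 50 with the random replicate block, and 123 and 33 with the dimmer 50% left out. They numbered 117 and 35 with arrays centred on their medians, 111 and 32 with values under 3 set to 3, and 35 lower without an intensity trend. Leaving out 1 array gave 6 to 54 lower and 0 to 12 higher, with 54 and 12 without homozygous replicate 1 and at most 39 lower and 2 higher without any other array, and leaving out both arrays numbered 1 gave 9 and 0. The replicate block with the dimmer 50% left out, chosen after seeing the data, gave 74 and 18. Members higher without overlap ranged from 11 to 20 with 1 change at a time and members lower without overlap from 0 to 3. With 1 array left out the higher members were 14 to 20 (41.2% to 58.8%), while the same share over all probe sets rose from 18.5% to between 20.7% and 51.1%, and over the brighter 50% from 12.7% to between 15.5% and 24.8%. Without both arrays numbered 1, also chosen after seeing the data for this count, they were 24 and 4, beside 58.8% higher and 11.8% lower over all probe sets. With a background limit of 2.5 or 4, 32 or 29 members were above it. For most of these counts the cause was not tested, but fewer arrays and fewer probe sets are part of several alternatives.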

Other observations

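Some genes of glutathione and redox metabolism were lowest on homozygous replicate 1, the array on which 17 of 30 glutathione S-transferase genes above the limit were highest. On that array 5 of those 30 members were lowest. The genes named below were picked with their values known, and 27.2% of the brighter 50% of probe sets were lowest on that array too. Other genes of the same lists were not, with Grx1 (10.38) highest there and Gclm (7.79) and Prx6c (10.87) inside their ranges. Mgstl, the microsomal transferase, was at 11.60 on that array and at 13.58 on both other homozygous arrays. Cth, an enzyme of cysteine synthesis, was at 8.55 there, against 11.04 and 11.27 in homozygous replicates 2 and 3. Trxr1, the reductase that recycles glutathione in flies, was at 9.83 there, against 12.51 and 12.30, and heterozygous replicate 1, at 10.99, was the next lowest array. Catalase (Cat) was at 11.40 there, against 12.86 and 13.03. GstT4 had the same order of arrays as Trxr1 at its low end. The cause of these values was not tested.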
